A study of Mus musculus with 4 samples.

Results

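Cx3cr1-positive resident-like macrophages of the injured mouse kidney were picked from 4 single-cell RNA-seq libraries by their UMI counts, a UMI being 1 counted RNA molecule. A cell was taken when its barcode held at least 200 genes and at most 50% mitochondrially encoded UMIs, at least 10 summed UMIs of C1qa, C1qb and C1qc and at least 2 UMIs of Cx3cr1. It also had to hold no UMI of Arg1 or Gpnmb, at most 2 of Ly6c2, Ms4a4c and Plac8 together, fewer than 3 of Mki67 and Top2a together, and none of Cd3d, Cd3e or Cd3g. These criteria left 2905 macrophages of 37839 kept barcodes. They numbered 1720 of 7086 in the day 5 library, 338 of 7043 in the probiotic day 5 library, 565 of 9572 in the day 14 library and 282 of 14138 in the day 28 library.

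All 4 libraries came from kidneys of male C57BL/6 mice that had undergone ischemia-reperfusion, in which blood flow to the kidney is stopped and then restored. The day 5 (IR_d5), day 14 (IR_d14) and day 28 (IR_d28) libraries differ by the time after injury, and carry no probiotic in their labels. The probiotic library (IR_Lac.z_d5) was made at day 5 from mice given L. casei Zhang (Lac.z), a Lactobacillus strain, by gavage for 4 weeks before injury at 1000000000 colony-forming units per day. Kidneys were digested with enzymes and red blood cells were lysed, and the labels do not say how many mice a library holds. Each group is 1 library, with no uninjured kidney and no probiotic library at day 14 or 28 analysed here, so differences between groups have no replicate check. Intervals cover counting error only.

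Tissue-resident macrophages of the kidney lie between the tubules, where they take up debris, sample antigen and send processes along the small vessels. CX3CR1, the receptor for the membrane-bound chemokine fractalkine, and the C1q chains, which start the classical complement pathway, are among the genes used to recognise them. After injury, blood monocytes enter through the receptor CCR2, and their descendants can take on parts of the resident profile, so these genes alone do not separate the origins.

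The macrophages held a median of 10213.5 UMIs in the day 5 library, 8383.5 in the probiotic library, 9490 at day 14 and 5989 at day 28, and their summed depth ran from 1932289 to 18804048 UMIs. Between 15 and 43 barcodes were shared between any pair of libraries. The file headers name software 3.0.2 at day 5, with and without the probiotic, and 3.1.0 at the later times, so version and time cannot be told apart. Levels are given as UMIs of a gene per 1000000 UMIs of the summed macrophages (CPM). RNA of other cells moved with the libraries: the 13 proximal tubule markers summed to 851 CPM in the macrophages at day 5, 2438 with the probiotic, 5460 at day 14 and 10310 at day 28, and 13 of 13 were more than 1.5-fold higher in each later or probiotic library than at day 5. The 7 natural killer markers summed to between 0.504 and 0.638 CPM, B cell markers to between 183 and 245, and dendritic cell markers to between 79.0 and 116. Distal tubule and duct markers summed to 23.2 CPM at day 5, 47.0 with the probiotic, 348 at day 14 and 307 at day 28. Neutrophil markers summed to 79.8 at day 5 and between 27.5 and 33.6 in the other libraries, and endothelial markers to 7.11 with the probiotic and between 30.9 and 42.6 in the others. The part of these RNAs in the differences between libraries was not tested. Erythroid markers summed to 1199 CPM at day 5 and to at most 34.9 in the other libraries. Proximal tubule markers in T cells of the same libraries summed to 1542, 2690, 5528 and 13170 in the same order.

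The label was checked on genes outside the criteria. Hpgd, the enzyme that inactivates prostaglandins, stood at 471 CPM at day 5, 433 with the probiotic, 212 at day 14 and 289 at day 28. After thinning each cell to 3000 UMIs, which left out 60, 12, 5 and 14 shallower macrophages in the order of the libraries, it was found in 57.8%, 57.4%, 40.9% and 54.1% of macrophages in that order, and in none of the T cells, whose unthinned median depth was between 3582.5 and 5050.0 UMIs. Apoe, a lipid-carrying apolipoprotein, lay between 24320 and 31630 CPM in all 4 libraries. Cells that met all else with 1 Cx3cr1 UMI had 27540, 26310, 33680 and 17700 CPM of Apoe in the order of the libraries. Hpgd in those cells is given below, and neither gene was particular to the chosen macrophages. Of 9 core macrophage genes, Lyz2 was past 1.5-fold, lower at day 28, and the list summed to 17750 CPM at day 5, 13860 with the probiotic, 13610 at day 14 and 12610 at day 28. Csf1r, the receptor for the survival factor CSF1, lay between 629 and 763, and Adgre1, which encodes F4/80, between 332 and 403. The markers of the label were thus present in every library, but genes of other macrophage types were too. Ccr2 reached 476 CPM at day 5, whereas Timd4, a gene of long-lived resident macrophages in many tissues, stayed at or below 0.518 CPM in every library. The criteria therefore describe a C1q-high, Cx3cr1-positive range that holds Ccr2-expressing cells, and do not establish residence.

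Among all kept barcodes these macrophages made up 24.3% at day 5 (95% exact interval 23.3 to 25.3), 4.80% with the probiotic (4.31 to 5.32), 5.90% at day 14 (5.44 to 6.39) and 2.00% at day 28 (1.77 to 2.24). The share was thus 5.06-fold lower with the probiotic than without at day 5 (4.50 to 5.70). Against the same library it was 4.11-fold lower at day 14 (3.74 to 4.53), and by day 28 it was 12.2-fold lower (10.7 to 13.9). These shares depend on how many tubule cells each library recovered, and fewer macrophages and more of other cells cannot be told apart.

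Among cells with at least 10 C1q UMIs the order changed. The macrophages were 45.5% of 3784 such cells at day 5, 20.5% of 1651 with the probiotic, 63.0% of 897 at day 14 and 50.4% of 560 at day 28. The day 14 and day 28 libraries were thus 1.39-fold and 1.11-fold above day 5 on this base, and the interval of the day 28 ratio, 0.973 to 1.26, included 1. The criterion that set the probiotic library apart was the one on Ly6c2, Ms4a4c and Plac8, used here as genes of inflammatory monocytes. It excluded 64.2% of the C1q cells there and 8.62%, 9.14% and 8.04% at days 5, 14 and 28. Interferon-response genes also rose with the UMIs of these genes, as given below. The origin of the cells that this criterion left out was not tested. Without that criterion the cells were 13.8% of kept barcodes with the probiotic against 26.6% without at day 5, 1.93-fold lower, and 58.8% against 49.9% of the C1q cells, which is a ratio above 1. The day 5 library was set apart by Arg1 and Gpnmb, genes of repair-type macrophages, which excluded 32.5% of its C1q cells, 23.2% with the probiotic, 5.69% at day 14 and 0.536% at day 28. The requirement for Cx3cr1 excluded 25.3%, 19.7%, 21.2% and 41.1% in the same order. Both limits are raw UMI counts, and the cells differed in depth. C1q cells with Arg1 or Gpnmb had a median of 16927 UMIs at day 5. Those meeting all else with under 2 Cx3cr1 UMIs had medians of 4134.5, 5151, 7495 and 4642.5 in the order of the libraries. The chosen macrophages had 10213.5, 8383.5, 9490 and 5989. The part of depth in these percentages was not tested. At the Cx3cr1 edge, cells meeting all else with 1 Cx3cr1 UMI had 300.0, 464, 256 and 197 CPM of Hpgd in the order of the libraries. Those with 2 had 447, 322, 207 and 302. The cells with 2 were thus higher for Hpgd at days 5 and 28 and lower in the other libraries.

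**Figure D1:**
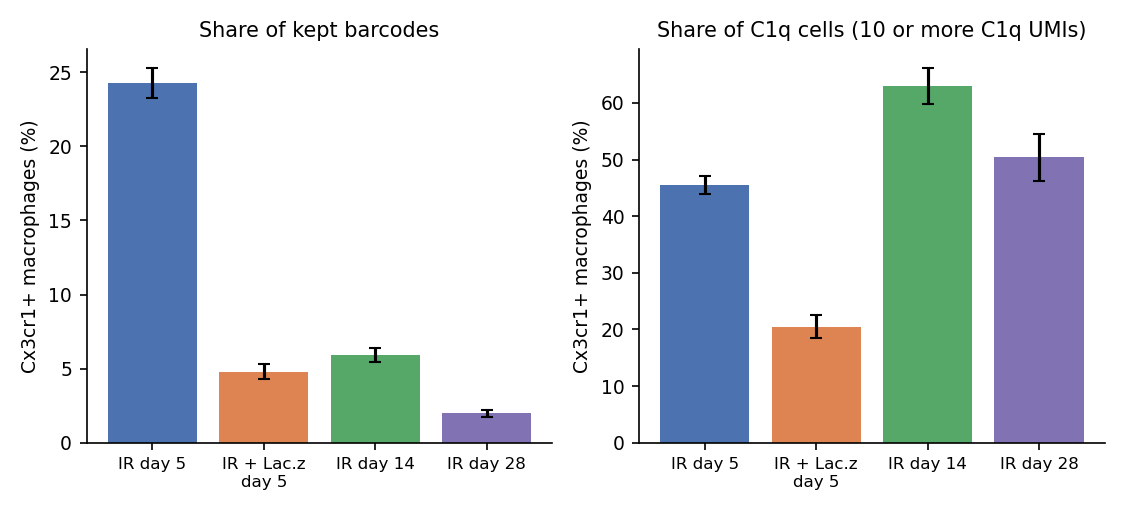
Cx3cr1-positive macrophages as a percentage of kept barcodes (left) and of cells with at least 10 C1q UMIs (right) in the 4 libraries, 1 bar per library, with exact 95% binomial intervals that cover counting error only. The day 5 bar is the tallest on the left at 24.3%, and the day 14 bar the tallest on the right at 63.0%.

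Set beside other C1q cells of their own library that met the limits on Mki67, Top2a and Cd3 genes, few genes marked the macrophages everywhere. At day 5 these were 1117 with Arg1 or Gpnmb, 192 over the Ly6c2, Ms4a4c and Plac8 limit and 432 with under 2 Cx3cr1 UMIs. At day 28 they were 3, 37 and 216, so the ratios of a gene compare with unlike cells across libraries. Of 6405 genes measured in all 4 libraries, 13 (0.203%) were at least 1.5-fold higher in the macrophages in every library and 41 (0.64%) at least 1.5-fold lower; since the cells were chosen on genes of these matrices, this is a description. Tmem119, a gene of microglia and other resident macrophages, was 1.93-, 1.92-, 2.18- and 1.91-fold higher in the day 5, probiotic, day 14 and day 28 libraries. Tnfsf13b, which encodes the B cell survival factor BAFF, was 3.77-, 2.48-, 1.61- and 1.62-fold higher. Cd4, the T helper cell co-receptor that macrophages can also carry, was 2.62-, 1.85-, 2.51- and 2.92-fold higher. Cd3d, Cd3e and Cd3g were at 0 by the criteria, so they cannot show whether T cell RNA was present. Thbs1, encoding thrombospondin 1, was 7.05-, 5.73-, 3.21- and 7.28-fold lower than in the other C1q cells. Fn1, encoding fibronectin, was 10.3-, 2.88-, 4.89- and 3.35-fold lower, and Adam8, a surface protease, 4.52-, 2.69-, 4.51- and 8.42-fold lower. In cells with at most 2 proximal tubule marker UMIs, 1 gene in place of 54 passed in all 4 libraries. There 1028 genes were measured in place of 6405, with 52 macrophages left at day 28.

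Interferon-response genes were higher in the probiotic library. Type I interferon induces this group, and promoters of many of its targets carry repeats of GAAA. Of 10124 genes measured, 1162 (11.5%) were more than 1.5-fold higher with the probiotic than without at day 5 and 309 (3.05%) more than 1.5-fold lower. Against this, 30 of 31 interferon genes were higher and 0 lower, with a median of 1.30 on the log2 scale beside 0.11 over all genes measured, which median-ratio scaling brought to 0.03. That median stayed between 1.13 and 1.99 under every alternative tried. The next lines show the promoter stretches of 5 of these genes that hold GAAA, then NN (any bases), then GAAA on either strand, since this is the core of the interferon-stimulated response element. They come from RefSeq on GRCm38.p6 and are written in the direction of the gene, with the matches in capitals and overlapping matches run together.
Ifit1 (chr19:34640765-34640833, plus strand): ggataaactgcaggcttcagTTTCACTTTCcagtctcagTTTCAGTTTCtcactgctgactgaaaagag
Ifit3 (chr19:34583353-34583436, plus strand): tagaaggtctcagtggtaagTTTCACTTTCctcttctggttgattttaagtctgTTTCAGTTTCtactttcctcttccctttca
Isg15 (chr4:156200855-156200916, minus strand): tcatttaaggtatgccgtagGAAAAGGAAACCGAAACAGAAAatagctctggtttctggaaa
Rsad2 (chr12:26456543-26456592, minus strand): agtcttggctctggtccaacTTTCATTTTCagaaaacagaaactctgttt
Oas3 (chr5:120777705-120777754, minus strand): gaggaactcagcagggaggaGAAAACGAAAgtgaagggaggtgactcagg

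The motif was found within 250 bases before the gene start in 11 of the 22 interferon genes present in the promoter table (50.0%), and in 978 of all 32851 promoters (2.98%). A match is a description of the sequence and not a measured binding site. Bst2, Ifit3b, Oas1a, Slfn5, Stat2 and Trim30a were the others with a match.

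The genes just shown had these levels in the macrophages. Ifit1, which binds foreign RNA caps, had 8.24 CPM at day 5, 55 with the probiotic, 18.6 at day 14 and 28.5 at day 28. The probiotic library was the highest for Ifit1, 6.68-fold above day 5 (95% interval 5.35 to 8.33). Ifit3, a partner of Ifit1, had 18.2, 107, 41.0 and 64.2 CPM in the same order, a 5.86-fold difference between the day 5 libraries (5.04 to 6.83). Isg15, a ubiquitin-like modifier, had 39.1, 131, 33.4 and 34.7. Isg15 was 3.33-fold higher with the probiotic (2.95 to 3.76) and stood near its day 5 level at both later times. Oas3, which makes the signal for RNase L, had 8.35, 37.7, 13.3 and 21.2, and was 4.52-fold higher with the probiotic. Rsad2, which encodes the antiviral enzyme viperin, kept another order, with 13, 28.1, 31.7 and 39.9. It was 2.16-fold higher with the probiotic than without, and its day 14 and day 28 levels were higher still. Without the limit on Ly6c2, Ms4a4c and Plac8 its later levels lay below day 5, at -0.10 and -0.077 on the log2 scale.

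Regulators of the response were higher with the probiotic too. Irf7, the transcription factor that amplifies interferon production, had 33.6 CPM at day 5, 188 with the probiotic, 62.3 at day 14 and 114 at day 28, so the probiotic library was 5.59-fold above day 5 (5.00 to 6.26). Usp18, which dampens signalling at the interferon receptor, had 8.93, 37.4, 17.8 and 22.8. Bst2, which tethers budding virus, differed less, with 383, 763, 351 and 496, and was 1.99-fold higher with the probiotic.

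The rule that names the 10 genes with the largest differences gave Irf7, Ifit1, Ifit3, Oasl1, Ly6a and Il2ra with 4 genes of tubule cells. Il2ra, a subunit of the interleukin 2 receptor, had 0.851, 10.8, 6.38 and 10.9 CPM in the order of libraries above. Ly6a, an interferon-inducible surface protein also found on T and endothelial cells, had 25.3, 164, 101 and 159. In 6 of the 10 the probiotic level was higher in barcodes with no Ptprc and under 10 C1q UMIs than in the macrophages. These 6 were Ifit1, Ly6a and the 4 genes of tubule cells. The part of RNA from other cells in these differences was not tested. Of 1101 genes past 1.5-fold on the high side that the naming rule could take, 400 were higher in the macrophages than in those barcodes, and, by that comparison added after seeing the data, these were led by Il2ra, Ifit3, Irf7, Oasl1, Ifi208, Ifit2, Ifi44 and Areg.

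**Figure D2:**
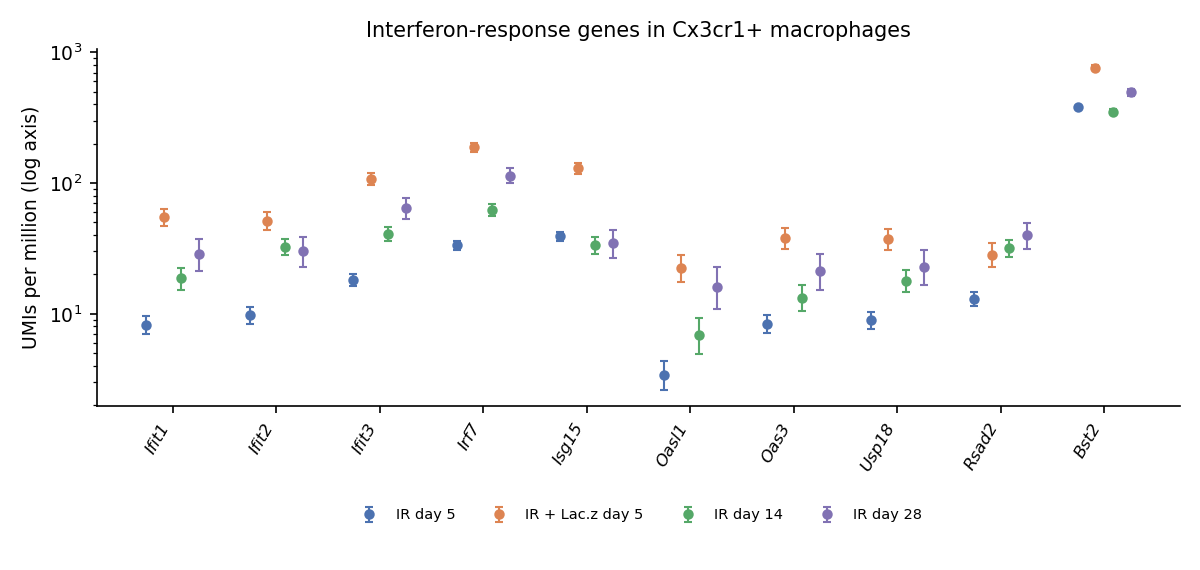
CPM, on a log axis, of 10 interferon-response genes summed over the Cx3cr1-positive macrophages of each library, with 95% counting intervals. The probiotic point lies above the day 5 point for all 10 genes, as with Irf7 at 188 against 33.6.

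Interferon genes were also higher in the other cells of the probiotic library. The list median was 2.46-fold for the Cx3cr1-positive macrophages, 2.5-fold for C1q cells with under 2 Cx3cr1 UMIs, 2.33-fold for those over the Ly6c2, Ms4a4c and Plac8 limit and 5.55-fold for those with Arg1 or Gpnmb. In T cells the list summed to 1620 CPM at day 5 and 6160 with the probiotic, against 3339 and 5994 in the macrophages, so the difference was not particular to the macrophages. At days 14 and 28 the T cell sums were 1602 and 1878.

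The limit on Ly6c2, Ms4a4c and Plac8 ran along the same gradient. Among cells meeting all other criteria at day 5, the interferon list summed to 3070 CPM in those with 0 UMIs of these genes, 3724 with 1, 4191 with 2, 5945 with 3 to 5 and 10820 with 6 or more. In the probiotic library the same classes held 4751, 5901, 8168, 12150 and 17670. Both libraries rose with the class, and the probiotic library was higher in each. There, 509 cells had 6 or more, against 41 in the day 5 library, and all of these fell outside the chosen macrophages. Within the chosen range, 24.3% of the probiotic macrophages held 2 such UMIs and 7.5% of those at day 5. Without the limit the list median between the day 5 libraries was 1.99 on the log2 scale. The differences given above are therefore those among cells from which the highest interferon levels had been removed by the criterion.

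**Figure D3:**
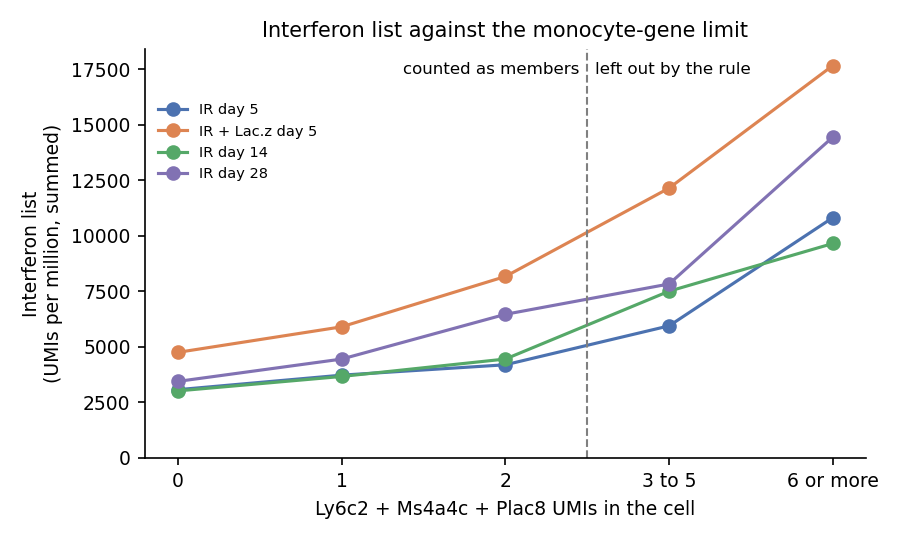
Summed interferon-response list, in CPM, in cells that meet every criterion but the one on Ly6c2, Ms4a4c and Plac8, by their UMIs of these 3 genes and by library. The probiotic line runs from 4751 to 17670 and lies above the day 5 line, 3070 to 10820, in each class; the dashed line marks the limit.

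At the later times many interferon genes were higher, while its sum stayed near day 5. The day 14 library had 1686 of 10551 measured genes (16.0%) more than 1.5-fold above day 5 and 716 (6.79%) below, and the day 28 library 1938 of 10104 (19.2%) above and 927 (9.17%) below. At day 14, 70.2% of the genes past 1.5-fold were higher, and 49.4% when the doublets marked by Scrublet were left out. Of the 31 interferon genes, 17 were higher at day 14 and 20 at day 28, with none lower, and medians of 0.65 and 0.77 on the log2 scale beside 0.05 and 0.09 over all genes. The summed list was 3339 CPM at day 5, 3352 at day 14 and 3964 at day 28. The 3 comparisons share the day 5 library.

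Many class II antigen presentation genes were higher at both later times. Class II molecules present peptides from engulfed material to CD4 T cells; Cd74 encodes the chain that guards their groove, and Ciita the factor that switches the genes on. The summed list took 28030 CPM at day 5, 22020 with the probiotic, 55530 at day 14 and 62720 at day 28. Of 13 measured genes, 6 were more than 1.5-fold higher at day 14 and 9 at day 28, with 0 lower at either time. With the probiotic 0 were higher and 3 lower. Among all genes measured, 16.0% and 19.2% were higher at days 14 and 28 and 6.79% and 9.17% lower. With the probiotic these shares were 11.5% higher and 3.05% lower.

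H2-Ab1, the class II beta chain of the A molecule, had 4299 CPM at day 5, 3201 with the probiotic, 9253 at day 14 and 10990 at day 28. Both later libraries were above both day 5 libraries, by 2.15-fold (2.13 to 2.18) at day 14 and 2.56-fold (2.52 to 2.60) at day 28 against day 5. H2-Aa, its alpha partner, had 4618, 3316, 9769 and 11060, and H2-Eb1, the beta chain of the E molecule, 4925, 3714, 9882 and 11610. Cd74 had 13020, 10700, 25130 and 27410. All 4 kept 1 order, with the probiotic lowest and day 28 highest. Ciita did not follow it over time, with 88.9, 56.6, 93.5 and 98.9, which puts the later libraries within 1.5-fold of day 5 and the probiotic library 1.57-fold lower. In T cells thinned to 3000 UMIs, H2-Ab1 was found in 12.5%, 7.72%, 7.58% and 6.68%, against 84.9%, 81.6%, 98.8% and 99.6% of the macrophages.

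H2-Aa and H2-Eb1 carry in their promoter the letters CTGATTGG, which hold the inverted CCAAT sequence of the Y box, the element through which the CIITA complex acts together with the X box. They are shown in the direction of the gene, from RefSeq on GRCm38.p6, with the match in capitals.
H2-Aa (chr17:34287847-34287894, minus strand): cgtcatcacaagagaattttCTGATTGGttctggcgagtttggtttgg
H2-Eb1 (chr17:34305785-34305832, plus strand): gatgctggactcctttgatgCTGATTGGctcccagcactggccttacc
Within 250 bases before the start these letters were present, on either strand, in 3 of the 9 class II genes in the table, the other being H2-Oa, and in 1258 of all 32851 promoters (3.83%).

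Class II varied between cells as well as between libraries. With each cell thinned to 3000 UMIs, the class II list gave a median of 93.0 UMIs per cell at day 5 (10th to 90th percentile 3.00 to 196), 74.0 with the probiotic (3.00 to 165), 188 at day 14 (83.0 to 267) and 222 at day 28 (96.9 to 304). Cells with fewer than 10 such UMIs were 18.4% of 1660 at day 5 and 19.0% of 326 with the probiotic, but 0.714% of 560 at day 14 and 0 of 268 at day 28, which allows a share of up to 1.12% by a floor of 3 counts and 1.37% by the exact interval. This is a range and not a type: 120 of the day 5 cells and 28 of the probiotic cells lay between 5 and 14. The 10 UMI line was drawn after the values were seen.

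**Figure D4:**
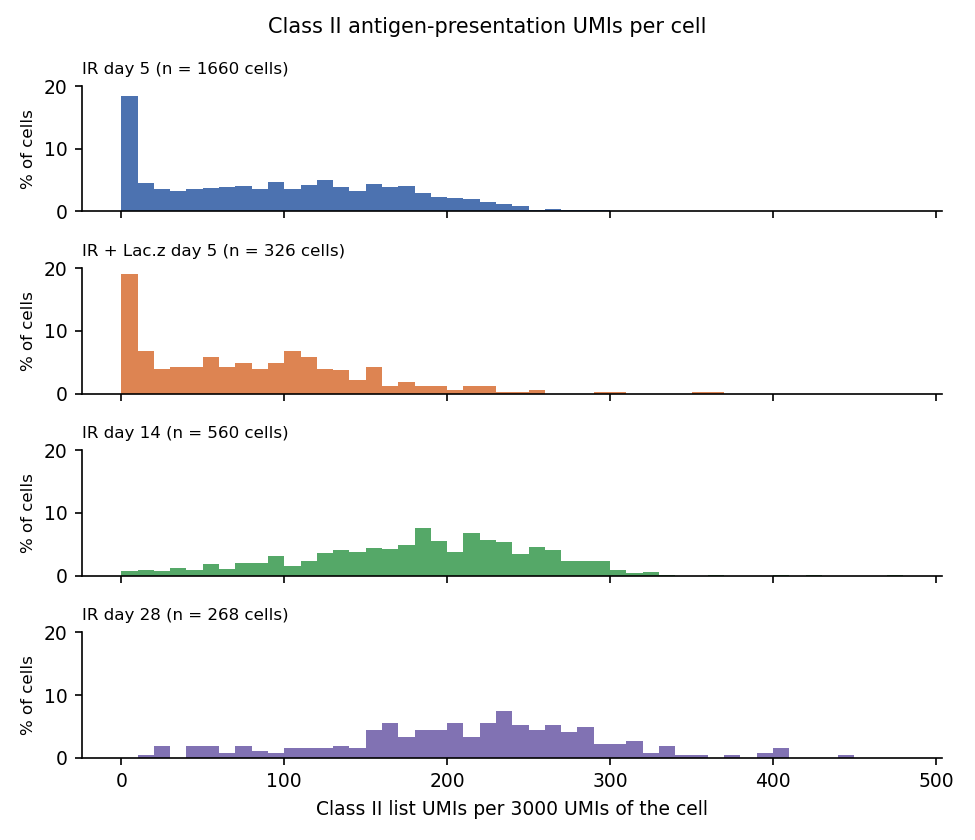
Class II list UMIs per cell after thinning to 3000 UMIs, as the percentage of macrophages per bin of 10 UMIs, in the 4 libraries. The first bin holds 18.4% of day 5 and 19.0% of probiotic macrophages, and 0.714% and 0% at days 14 and 28.

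The class II-low macrophages of day 5 carried genes of perivascular-type resident macrophages, which line vessels and scavenge. Over these 306 cells and the 1354 others, F13a1, which encodes the A subunit of clotting factor XIII, had 447 against 100.3 CPM, and Mrc1, the mannose receptor, 1146 against 556. Pf4, a chemokine first known from platelets, had 1671 against 681, and Folr2, a folate receptor, 63.5 against 6.54. The class II-low cells were higher for each, and lower for Ccr2, with 220.3 against 554. The profile was not perivascular alone: Spp1 had 640 against 392, Fabp5 169 against 59.7 and Trem2 696 against 463, genes described below with repair macrophages. Lgals3 was close, at 652 against 612, and Cd9 lower, at 85.8 against 118. Per cell the perivascular list had a median of 13 UMIs per 3000 in the class II-low cells and 4.00 in the others, and the monocyte-derived list 1.00 and 2.00. With the probiotic the perivascular medians were 6.00 in 62 class II-low cells and 2.00 in 264 others. Cx3cr1 was close in both, at 647 against 753 at day 5. Their median depth was 13708.5 against 9840.5 UMIs.

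Over all macrophages many perivascular genes were lower than at day 5. Of 10 measured, 8 were lower with the probiotic, 6 at day 14 and 10 at day 28, with 0 higher. The medians were -1.02, -0.96 and -1.0 on the log2 scale. Among all genes measured, 3.05%, 6.79% and 9.17% were lower in that order and 11.5%, 16.0% and 19.2% higher. F13a1 had 183 CPM at day 5, 75.4 with the probiotic, 38.3 at day 14 and 22.3 at day 28. The day 5 level was the highest, 2.43-fold (2.13 to 2.78), 4.79-fold (4.19 to 5.50) and 8.23-fold (6.10 to 11.4) above the others in that order. Mrc1 had 697, 388, 498 and 381, and Pf4 had 916, 412, 525 and 437. Pf4 was 2.22-fold lower with the probiotic, 1.74-fold at day 14 and 2.10-fold at day 28. Igf1, a growth factor, had 144, 75.1, 116 and 88.0 and was past 1.5-fold with the probiotic and at day 28. Folr2 and Cd163, a haemoglobin scavenger receptor, were scarce throughout, at most 20.1 and 18.0 CPM.

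When the class II-low cells were left out, an alternative added after seeing the data, the perivascular medians were -0.17 at day 14 and -0.34 at day 28, and -1.33 with the probiotic. The class II medians were then 0.26 and 0.67 at the later times, where all macrophages gave 0.57 and 1.0. The cells were left out by their own class II UMIs, and most of those left out came from the day 5 libraries, so the smaller class II medians follow from that choice. For the perivascular list the later medians were nearer 0 and the probiotic median was not. F13a1 was 34.9 at day 14 against 100.3 at day 5 among these cells.

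Of 11 measured iron and haem genes 4 were lower and 0 higher with the probiotic, beside 3.05% and 11.5% of all genes measured. The list summed to 22050 CPM against 22880 at day 5. Slc40a1, the iron exporter ferroportin, had 32.7 CPM at day 5, 7.73 with the probiotic, 11.2 at day 14 and 15.5 at day 28, so it was 4.23-fold lower with the probiotic (2.84 to 6.58), 2.90-fold at day 14 and 2.10-fold at day 28. Hmox1, which breaks down haem, had 245, 123, 194 and 145. It was 1.99-fold lower with the probiotic and 1.68-fold at day 28, and within 1.5-fold at day 14. Both genes were higher in the class II-low macrophages of day 5 than in the others, Slc40a1 at 72.2 against 20.4 CPM and Hmox1 at 477 against 172. Among cells with at least 10 class II UMIs per 3000, Hmox1 had 172 at day 5, 121 with the probiotic, 194 at day 14 and 145 at day 28. Its day 28 level there was within 1.5-fold of day 5. Slc40a1 had 20.4, 6.34, 11.2 and 15.8. Erythroid RNA, which differed between these libraries as given above, was highest at day 5. The part of either in these values was not tested. The anti-inflammatory cytokine gene Il10 was also lower with the probiotic, at 3.71 against 14.4 CPM, 3.87-fold (2.18 to 7.59), with 7.38 at day 14 and 14.0 at day 28. The naming rule gave Slc40a1, Il10, F13a1, Pf4, Folr2, Gpr34, Ctla2a, Rgs18, Cdc42ep2 and Hmga1b on the low side, of which Hmga1b had 0 UMIs with the probiotic.

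Many genes of monocyte-derived cells were lower at later times. Ccr2 had 476 CPM at day 5, 256 with the probiotic, 256 at day 14 and 166 at day 28. It was 1.86-fold lower with the probiotic and at day 14, and by day 28 it was 2.87-fold lower. Without the limit on Ly6c2, Ms4a4c and Plac8 the probiotic difference was -0.28 on the log2 scale, within 1.5-fold. Of 12 measured monocyte-derived genes, 4 were lower and 1 higher with the probiotic, 6 and 2 at day 14, and 10 and 2 at day 28. All genes measured gave 3.05% lower and 11.5% higher with the probiotic, 6.79% and 16.0% at day 14, and 9.17% and 19.2% at day 28. The counts on the high side were close to those shares. Chil3, a chitinase-like protein of monocytes, had 4.89 CPM from 92 UMIs at day 5, 0.927 from 3 UMIs with the probiotic, and 0 UMIs at day 14 and day 28. Without the limit on Ly6c2, Ms4a4c and Plac8, Chil3 was higher with the probiotic than without, by 0.27 on the log2 scale. Thbs1 was flat until day 28, with 34.1, 31.8, 32.1 and 5.18 CPM, 6.60-fold lower at day 28 than at day 5. Lyz1, a lysozyme gene, ran the other way at 13.2, 4.64, 14.1 and 40.4. Reads of Lyz1 and its near copy Lyz2 may be shared, and Lyz2 had 13800, 10190, 9454 and 8466.

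Ccr1, a receptor for inflammatory chemokines, led the genes on the low side at day 28 by the naming rule. It had 234 CPM at day 5, 202 with the probiotic, 88.8 at day 14 and 21.7 at day 28, which was 2.63-fold below day 5 at day 14, and 10.7-fold below it (7.93 to 14.9) by day 28. Clec4e, the receptor Mincle for dead cells and mycobacterial lipid, had 39.3, 28.8, 23.3 and 3.11, and was 12.7-fold lower at day 28 (5.79 to 34.6). Both genes fell in the order of the 3 times. Lgals1, encoding galectin 1, had 494, 316, 255 and 131, and Ecm1, a matrix protein, 35.4, 26.9, 13.4 and 6.21. Ier3, an early response gene, had 1012, 556, 457 and 245, and was 4.12-fold below day 5 at day 28. Bhlhe41, a transcription repressor, had 23.8, 17.6, 5.20 and 2.07, 11.5-fold lower at day 28. At day 14, Hcar2, the receptor for niacin and beta-hydroxybutyrate, was 9.03-fold lower than at day 5 (5.50 to 15.9), with 24.3 and 2.69 CPM, beside 17.9 with the probiotic and 5.18 at day 28. Fcna, a lectin, had 5.27 CPM from 99 UMIs at day 5 and 0.336 from 2 UMIs at day 14.

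Trem2, a lipid-sensing receptor of repair macrophages, had 517 CPM at day 5, 458 with the probiotic, 298 at day 14 and 233 at day 28. It was 1.74-fold and 2.22-fold lower at the later times. Trem2 is counted below with the genes of homeostatic resident macrophages and not with the lipid-handling genes. Spp1, the matrix cytokine osteopontin that tubule cells also make, had 452, 503, 558 and 167, so only the day 28 library was past 1.5-fold below day 5. Fabp5, a fatty acid carrier, had 86.1, 111, 63.4 and 37.3. Mmp12, the macrophage elastase, was higher in every library than at day 5, with 49.6, 134, 96.5 and 125. Of the 14 measured lipid-handling genes 2 were higher and 1 lower with the probiotic, 3 and 0 at day 14, and 2 and 3 at day 28. Over all genes, 11.5%, 16.0% and 19.2% were higher in that order and 3.05%, 6.79% and 9.17% lower. The counts on the high side were close to these shares.

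Inflammatory genes moved in both directions at the later times. Il1b, encoding the cytokine interleukin 1 beta, had 693 CPM at day 5, 848 with the probiotic, 2938 at day 14 and 2419 at day 28. Both later libraries were above both day 5 libraries, 4.24-fold (4.14 to 4.34) and 3.49-fold (3.37 to 3.61) above day 5. Nlrp3, the sensor of the inflammasome that matures interleukin 1 beta, had 56.7, 73.3, 226 and 134, 3.99-fold and 2.36-fold higher. Tnfaip3, a brake on NF-kB, had 80.9, 68.9, 262 and 219. Il1rn, the natural antagonist of interleukin 1, did not share that order, with 44.5, 63.1, 66.0 and 19.7, and was 2.26-fold lower at day 28 than at day 5. Of 21 measured cytokine and inflammatory genes 7 were higher and 3 lower at day 14, and 4 higher and 6 lower at day 28. With the probiotic 0 were higher and 2 lower. Over all genes, 16.0% were higher and 6.79% lower at day 14, and 19.2% and 9.17% at day 28. With the probiotic these shares were 11.5% and 3.05%. The 4 cytokine and inflammatory genes higher at day 28 were thus close to the share of all genes.

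Several immediate early and heat shock genes, which tissue digestion also induces, were higher at the later times too. Their order over the libraries was not that of the inflammatory genes throughout. With the probiotic, 4 of 10 heat shock genes and 0 of 21 cytokine and inflammatory genes were higher, beside 11.5% of all genes measured. Fosb had 154 CPM at day 5, 275 with the probiotic, 930 at day 14 and 770 at day 28, and Klf4, a transcription factor of monocyte and macrophage maturation, 77.9, 92.7, 478 and 310.0. Hspa1a, an inducible chaperone, had 117, 297, 324 and 530. The immediate early list summed to 14660 at day 5, 16390 with the probiotic, 20790 at day 14 and 20110 at day 28. Of its 17 genes, 6 were higher at each later time, and 2 and 3 lower. Among all genes measured, 16.0% and 19.2% were higher at days 14 and 28 and 6.79% and 9.17% lower. In T cells the immediate early list summed to 4465, 4417, 7668 and 8160. The part of handling in the differences of Il1b, Nlrp3 and Tnfaip3 was not tested.

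Several lipid mediator genes were lower at both later times. Of 14 measured genes of prostaglandin and leukotriene handling, 8 were lower at day 14 and 6 at day 28, with 0 higher. The probiotic library had 1 higher and 0 lower. Among all genes measured, 6.79% and 9.17% were lower at days 14 and 28 and 16.0% and 19.2% higher. With the probiotic these shares were 3.05% lower and 11.5% higher. Hpgd, given above, was 2.22-fold lower at day 14 (2.10 to 2.36) and 1.63-fold at day 28 (1.5 to 1.78). Ptgs1, the constitutive cyclooxygenase, had 103, 109, 67.3 and 46.6 CPM and was 2.21-fold lower at day 28. Alox5ap, which hands arachidonic acid to 5-lipoxygenase, had 624, 608, 379 and 354, and Ltc4s, which makes leukotriene C4, 68.2, 57.2, 36.3 and 23.8. Alox5 itself was scarce, at 12.4, 8.04, 4.70 and 3.62. For each of these 4, the 2 day 5 libraries were above both later ones. Hpgds, the prostaglandin D synthase, had 175, 165, 114 and 136 and was past 1.5-fold at day 14, at 1.54-fold. With at most 2 tubule marker UMIs in the cell the list median at day 14 was -0.40 in place of -0.62.

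**Figure D5:**
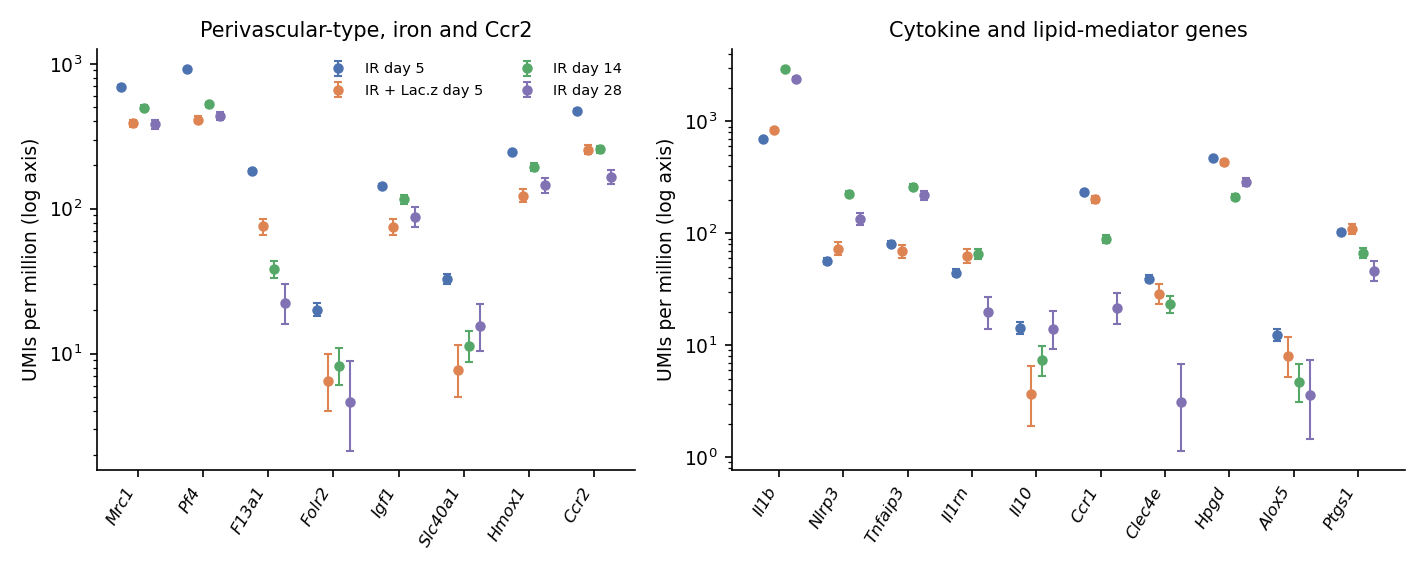
CPM, on log axes, of perivascular-type, iron and Ccr2 genes (left) and cytokine and lipid-mediator genes (right) summed over the macrophages of each library, with 95% counting intervals. Day 5 is the highest point for F13a1 at 183, day 14 for Il1b at 2938, and day 28 the lowest for Ccr1 at 21.7.

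Between day 28 and day 14, 711 of 8648 measured genes (8.22%) were more than 1.5-fold higher and 447 (5.17%) lower. Of 13 class I genes 1 was higher than at day 14, a share no larger than that of all genes. H2-K1, a classical class I heavy chain, had 1040 CPM at day 5, 1280 with the probiotic, 1245 at day 14 and 2119 at day 28, 1.70-fold above day 14 (1.64 to 1.77) and 2.04-fold above day 5. H2-Q7 had 33.5, 65.8, 69.5 and 208, and H2-Q6 9.04, 33.1, 14.6 and 77.1, although reads of these near-identical genes may be split between them. B2m, the light chain, had 1506, 1831, 1944 and 2502. All 4 genes had their highest level at day 28. Ccl5, a chemokine that T cells make in quantity, was 3.52-fold higher at day 28 than at day 14, at 62.1 against 17.6. Relative to day 5, Ccl5 was past 1.5-fold lower with the probiotic and at day 14, and past 1.5-fold higher at day 28. Without the limit on Ly6c2, Ms4a4c and Plac8 its probiotic difference was 1.16 on the log2 scale. The criteria set the Cd3 genes to 0, so these cannot show whether T cell RNA was present. Against day 5, 4 of the 13 class I genes were higher at day 28 and 0 lower, beside 19.2% and 9.17% of all genes measured.

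None of 6 Fc gamma receptor genes passed 1.5-fold in any of the 4 comparisons, and summed to between 4567 and 5400 CPM. Of 19 lysosome genes 0 were past 1.5-fold with the probiotic, 1 was lower at day 14 and 5 at day 28. The lysosome list summed to 16550 CPM at day 5, 17250 with the probiotic, 12870 at day 14 and 13280 at day 28. Of 11 measured checkpoint and inhibitory receptor genes 0 passed with the probiotic. At day 14, 1 was higher and 2 lower, and at day 28, 3 were higher and 2 lower. Over all genes, 11.5%, 16.0% and 19.2% were higher in the probiotic, day 14 and day 28 libraries and 3.05%, 6.79% and 9.17% lower. Among the 13 measured genes of homeostatic resident macrophages, 1 was higher and 2 lower with the probiotic, 0 and 2 at day 14, and 2 and 4 at day 28. Tmem119 had 39.5, 65.2, 40.3 and 40.4 CPM, so the probiotic library was 1.65-fold above day 5. Gpr34, a lysophosphatidylserine receptor, had 80.5, 34.6, 60.3 and 54.3 and was 2.33-fold lower with the probiotic.

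The 10 genes named on the high side at day 14 and the 10 at day 28 were all higher in barcodes without Ptprc and with under 10 C1q UMIs than in the macrophages. Kap, a kidney androgen-regulated gene of the proximal tubule, had 173 CPM in the macrophages at day 5, 499 with the probiotic, 2322 at day 14 and 5043 at day 28. After thinning, Kap was found in 60.8% of macrophages and 61.5% of T cells at day 28. Of the 1597 such genes on the high side at day 14, 383 were higher in the macrophages than in those barcodes, and 590 of 1854 at day 28. Among the lower genes the shares were larger, at 404 of 604 and 547 of 782. A smaller share of the higher than of the lower genes was thus higher in the macrophages than in those barcodes. Each level was taken in the library where the gene was higher, the later library for the higher genes and day 5 for the lower. These shares therefore rest on different libraries.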

How the data were processed

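Kidney cells of 4 libraries, 1 per group, were analysed from raw UMI counts per gene and barcode, as deposited by the authors; the submitters' processing notes name build mm10, and an aligner and annotation: not given in the sources used here. Headers give software versions 3.0.2 and 3.1.0. The macrophages, gene lists and comparisons were chosen with earlier results of these data known. The 31053 genes were summed over the chosen cells of each library and scaled to UMIs per 1000000 (CPM). Genes with at least 50 UMIs over both libraries were measured, 1 UMI was added to each sum for log2 ratios, and a gene was called past 1.5-fold. Shares have Clopper-Pearson and ratios exact conditional binomial 95% intervals, for counting error only; with 1 library per group no test was made. Named genes were the 10 highest and 10 lowest per comparison by the interval bound nearest 1, leaving out criterion, mitochondrial, ribosomal, haemoglobin, Xist, Y-linked and predicted genes and those with over 50% of UMIs in 3 cells. Against other C1q cells they were ranked by their weakest ratio over the libraries. Added after seeing the data was the comparison with barcodes without Ptprc. Up to 4 genes per list farthest from 1, and those described in every library, were also named. Scrublet (scanpy 1.11.5) marked doublets at 0.8% per 1000 barcodes as an alternative only: 89, 17, 49 and 36 of the macrophages in the order IR_d5, IR_Lac.z_d5, IR_d14, IR_d28. The calling code was run on simulated counts that held counting error only, which cannot show how calls vary between mice or libraries. Python 3.11.15, numpy 2.4.6, scipy 1.17.1 and pandas 2.3.3 were used. Mx2, Ifi30 and Clec7a were not analysed here. One gene of the interferon list is counted with the list and not reported here on its own.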

Additional observations from a re-analysis of the deposited data

How the results depend on the processing

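No paired analysis was possible because each group had 1 library; for the same reason no replicate could be left out. The share of kept barcodes, as a ratio to day 5, was 0.198 with the probiotic, 0.243 at day 14 and 0.0822 at day 28. At day 28 it was 0.101 with Cx3cr1 at 1 UMI or more, 0.0662 at 3 or more and 0.0944 with a mitochondrial limit of 25%, and with the probiotic it was 0.224 under that limit and 0.225 after thinning to 5000 UMIs. As a share of C1q cells the ratios were 0.450 with the probiotic, 1.39 at day 14 and 1.11 at day 28, the later pair in the opposite direction. Chosen after seeing the data were the next settings. Without the limit on Ly6c2, Ms4a4c and Plac8 the probiotic ratio was 0.517, and over C1q cells the ratios were 1.18, 1.39 and 1.11; over C1q cells after thinning they were 0.512, 1.21 and 1.10. The cause was not tested.

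Genes past 1.5-fold numbered 1471 with the probiotic, 2402 at day 14, 2865 at day 28 and 1158 between days 28 and 14. A minimum of 200 UMIs gave 521, 1111, 1426 and 304, since fewer genes were measured, and no filter gave 6156, 7301, 8247 and 5511. With at most 2 tubule marker UMIs the day 28 against day 14 count was 460, of 2656 genes measured in place of 8648. Of the called genes at day 14, 70.2% were higher, against 49.4% without marked doublets, 55.6% after thinning and 51.5% with at most 2 tubule marker UMIs. That last limit again called 587 of the 1471 genes with the probiotic, 767 of 2402 at day 14 and 1112 of 2865 at day 28. Between days 28 and 14 it again called 81 of 1158. It left fewer macrophages and measured fewer genes in each comparison. Genes past 1.5-fold against other C1q cells in all libraries numbered 54, and 18, 179 and 1 with the minimum of 200, no filter and at most 2 tubule marker UMIs. Measured were 6405, 2241, 13853 and 1028 genes in that order. These log2 ratios changed sign: Cd163 to 0.33 with the probiotic on per-cell means and to 0.69 at day 28 with few tubule UMIs, Ifit1 and Ifit3 between days 28 and 14 to -0.66 with Cx3cr1 at 3 or more and to -0.82 with few tubule UMIs, and Folr2 at day 14 to 0.11 without class II-low cells. Without the limit, Chil3 and Ccl5 with the probiotic went to 0.27 and 1.16, and Rsad2 at days 14 and 28 to -0.10 and -0.077.

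At day 28, 282 macrophages with a median of 5989 UMIs limit what low genes can show.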

Other observations

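Past 1.5-fold against day 5, 11.5%, 16.0% and 19.2% of all genes were higher in the probiotic, day 14 and day 28 libraries, and 3.05%, 6.79% and 9.17% lower. Of 14 measured engulfment and scavenger receptor genes, which let macrophages bind dead cells and debris, 4 were lower and 0 higher at day 14, 6 lower and 1 higher at day 28, and 1 higher and 0 lower with the probiotic, each against day 5. Of 10 heat shock genes, whose products refold proteins, 4 were higher and 1 lower with the probiotic, 4 and 0 at day 14, and 6 and 1 at day 28. Of 19 genes of oxidative phosphorylation 1, 1 and 4 were higher in the same order and 0 lower, shares below or close to those of all genes, and of 11 mitochondrially encoded genes 0, 2 and 5. Of 15 glycolysis genes 1 was higher with the probiotic, 2 were lower at day 14, and 1 was higher and 4 lower at day 28. Proximal tubule RNA was higher in the same libraries, and its part in these counts was not tested.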
